A study of Homo sapiens with 36 samples.

Results

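The genes described here are 8 transcription factor genes that specify lung and other endoderm-derived epithelia, namely NKX2-1, FOXA1, FOXA2, HNF4A, GATA6, GATA2, ELF3 and CEBPA. They were chosen by name and not by a measured value, though with earlier results of these data known. They stand among 20033 protein-coding genes of the GENCODE annotation. Peaks of chromatin immunoprecipitation followed by sequencing (ChIP-seq) were counted within 3 kb of any annotated start site of each gene and within 100 kb. The study compared A549, an established lung adenocarcinoma line, with BEAS-2B (B2B), an established line of immortalised bronchial epithelial cells. It held 36 samples in 18 groups of 2 replicates, of which 4 samples were input chromatin. The labels name no treatment, and both lines were grown in the same serum-containing medium. Each line stands for 1 donor and was kept in culture, so that a difference between the lines cannot be told apart from a difference between the donors, their tissues of origin or their histories in culture.

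NKX2-1 directs the formation of the lung bud and of surfactant-producing alveolar cells, and it is used in the clinic as a marker of lung adenocarcinoma. FOXA1 and FOXA2 are forkhead pioneer factors, which can bind their sites in closed chromatin and open it for others. HNF4A is a nuclear receptor of liver and gut epithelium with a pair of alternative promoters, of which the upstream P2 and the downstream P1 give rise to different proteins. GATA6 acts in early endoderm and in the lung epithelium, whereas GATA2 is known best from blood stem cells. ELF3 is an epithelial factor of the ETS family, and CEBPA drives differentiation in liver, fat, myeloid cells and alveolar epithelium. Promoters in use carry trimethylated histone H3 lysine 4 (H3K4me3) and RNA polymerase II (pol II). Active enhancers carry acetylated H3 lysine 27 (H3K27ac) and the Mediator subunit Med1. Jun, JunB and JunD are subunits of AP-1, a dimeric factor that binds the letters TGAGTCA or, read on the other strand, TGACTCA.

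The data were 16 lists of peaks, each called by the authors on merged replicates, so that no value had a replicate error and no test was possible. A statement that a peak was called in a line and not in the other therefore describes a pair of lists. The lists held 8563 (B2B JunB) to 61225 (B2B CTCF) peaks. Those of H3K4me3 and of the Jun family covered every chromosome in both lines, whereas 4 lists ended early. A549 H3K27ac covered GATA2 and ELF3 alone, Med1 in both lines covered these along with NKX2-1 and FOXA1, and A549 pol II covered all genes but FOXA2 and HNF4A. The fold enrichment of a peak was the ratio of the reads piled up at its summit to the local background, each plus 1 read. The median background under H3K4me3 peaks was 3.27 reads in A549 and 26.7 reads in B2B, and the median fold enrichment was 12.8 and 3.42. For pol II the median background was 2.36 reads in A549 and 7.85 reads in B2B. Fold enrichments of different lists were therefore not compared in size as a result, and the percentile of a peak within its own list is given beside many of them. The Jun-family regions below are an exception. They were ranked and drawn by the fold enrichments of Jun, JunB and JunD summed within a line. The leading summit of a region was that of highest fold enrichment in the Jun-family lists of both lines. The part of this difference in background in the calls was not tested.

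H3K4me3 lay at the start sites of all 8 genes in A549 and of 4 in B2B. The 4 genes with a peak within 3 kb in both lines were NKX2-1, FOXA1, GATA6 and GATA2. The other 4, FOXA2, HNF4A, ELF3 and CEBPA, had a peak in A549 and none in B2B. Over all coding genes, 73.7% had such a peak in A549, 62.7% in B2B, 60.8% in both lines and 12.9% in A549 and not in B2B. When the longer list was shortened to the length of the shorter, the same 8 and 4 genes were called. With the gene's 5′ end alone in place of any start site, GATA2 was called in B2B and not in A549, and the other calls stayed. The count of peaks within 3 kb is shown by gene and list in the grid of peak numbers.

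**Figure D1:**
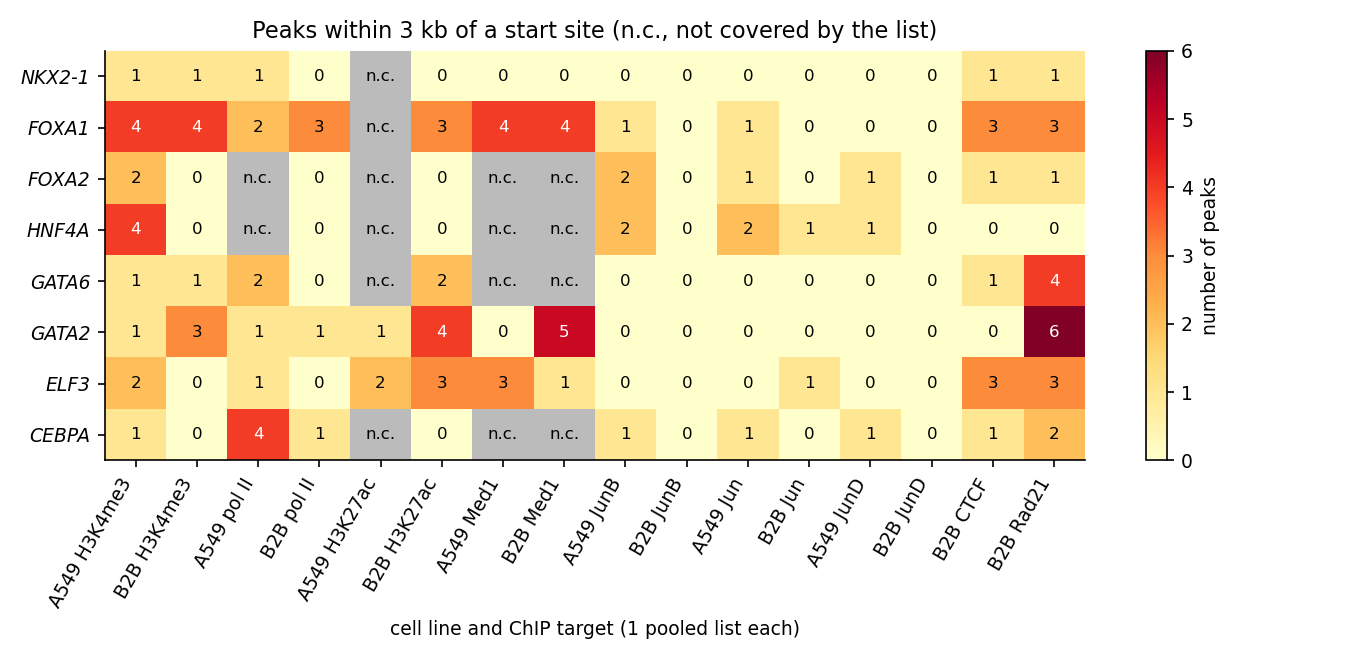
Number of peaks within 3 kb of a start site for 8 genes (rows) in each of the 16 peak lists (columns, cell line and ChIP target), with grey cells (n.c.) where the list does not reach the gene. In the leftmost columns, H3K4me3 was called at all 8 genes in A549 and at 4 in B2B, and JunB was called at 4 genes in A549 and at none in B2B.

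Among the forkhead factors, FOXA1 had the H3K4me3 peak of highest fold enrichment of the 8 genes in A549. That peak, at chr14:37593968-37596691 (hg38, as all positions here), reached 45.8-fold with 160 reads over a background of 2.51 and stood at the 95.8th percentile of its list. In B2B the highest of 4 FOXA1 peaks reached 3.90-fold, with 71 reads over a background of 17.45, at the 59.5th percentile. Peaks covered 4965 bp of the 3 kb window in A549 and 4028 bp in B2B, so that the marked length at FOXA1 was similar in the lines. FOXA2 had 2 H3K4me3 peaks in A549, of 39.1-fold and 25.2-fold, the larger 3628 bp wide. In B2B no H3K4me3 peak lay within 100 kb of FOXA2.

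The GATA genes were marked in both lines, over a longer stretch in A549. GATA6 carried a single A549 peak of 4140 bp, 39.7-fold with 135 reads over 2.43 at the 87.6th percentile, at chr18:22167106-22171245. Its B2B peak was 1450 bp wide and 2.99-fold, with 124 reads over a background of 40.8, at the 40.2nd percentile. The reads at the 2 summits were not compared in size, since read depth is not known from these lists. The median pileup of all H3K4me3 peaks was higher in the B2B list than in the A549 list. The part of background in the difference in fold enrichment was not tested. At GATA2 the A549 peak reached 31.8-fold with 108 reads over 2.43, at the 73.9th percentile. The highest of its 3 B2B peaks reached 3.33-fold with 137 reads over 40.4, at the 48.1st percentile. Peaks covered 2316 bp of the GATA2 window in A549 and 1388 bp in B2B.

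NKX2-1 had the weakest H3K4me3 call of the 4 genes marked in both lines. In A549 its peak was 2400 bp wide and 21.0-fold, with 81 reads over 2.90, at the 58.9th percentile. In B2B it was 300 bp wide and 2.10-fold, with 42 reads over 19.4, at the 12.3rd percentile of its list. This B2B peak was lost when a −log10 q of at least 5 was asked for, the only gene of the 4 for which that was so. A start site of NKX2-1 is shared to the base with that of SFTA3, so that these peaks cannot be assigned to either gene.

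HNF4A, ELF3 and CEBPA were marked in A549 and had no B2B call at their starts. HNF4A carried a peak of 25.1-fold at the upstream P2 promoter, chr20:44355181-44356957, and a wider one of 9.53-fold and 2553 bp that began at the downstream P1 promoter. A further 2 A549 peaks of 3.41-fold and 3.36-fold followed downstream of P1. ELF3 had an A549 peak of 21.5-fold that spanned 6601 bp, wider than 99.8% of the peaks of its list. The CEBPA peak reached 22.1-fold in A549 with 205 reads over 8.35, the largest pileup of the 8 genes. The B2B list held 5 H3K4me3 peaks within 100 kb of ELF3, 2 of HNF4A and 2 of CEBPA, all farther than 3 kb from their starts. The plot of reads at the summits shows the pileup and the background of the highest peak of each gene.

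**Figure D2:**
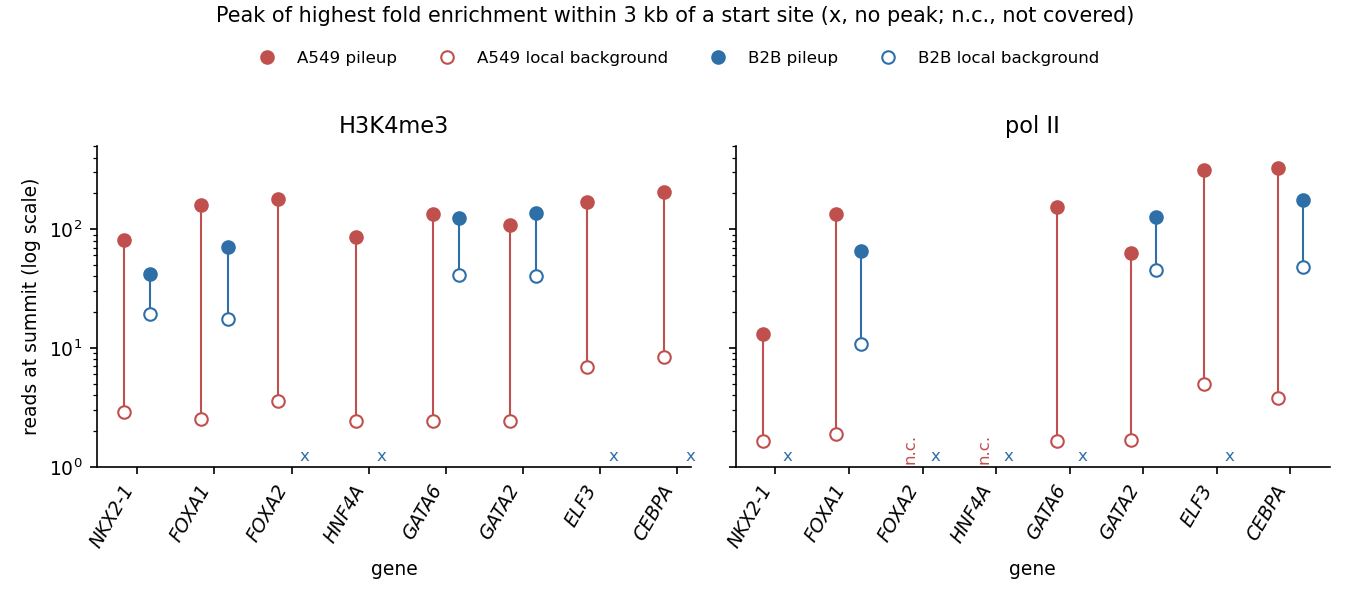
Reads piled up at the summit (filled) and reads of local background (open) for the peak of highest fold enrichment within 3 kb of each gene's start sites, on a log scale, for H3K4me3 (left) and pol II (right) in A549 (red) and B2B (blue). A cross marks a gene with no peak and n.c. a gene the list does not cover. B2B backgrounds lie between 10.8 and 47.55 reads, all above the A549 backgrounds of 1.65 to 8.35 reads.

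Pol II was called within 3 kb of a start for all 6 covered genes in A549 and for 3 of 8 in B2B, namely FOXA1, GATA2 and CEBPA. Over coding genes the shares were 69.6% in A549 and 50.9% in B2B. CEBPA had the highest A549 value, 68.6-fold with 328 reads over 3.79 at the 94.3rd percentile, and the peak stood 50 bp downstream of the start. In B2B the CEBPA peak reached 3.67-fold with 177 reads over 47.55, at the 27.8th percentile. Pol II was thus called at CEBPA in B2B without an H3K4me3 call there. Of the genes covered in both lists, NKX2-1, GATA6 and ELF3 had pol II in A549 and not in B2B, which held for 19.5% of coding genes. With lists of equal length NKX2-1 was no longer called in A549.

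The A549 pol II peaks of these genes differed widely. GATA6 reached 57.7-fold at its start, with 152 reads over 1.65. ELF3 reached 53.1-fold with 315 reads, in a single peak of 9793 bp that began within the gene and ran past its end. FOXA1 had 47.1-fold in A549, at the 87.9th percentile of that list, and 5.70-fold in B2B, at the 63.8th. GATA2 had 23.8-fold in A549, at the 77.4th percentile, and 2.78-fold in B2B, at the 12.2nd. The ELF3 peak was wider than 99.8% of A549 pol II peaks. Of the highest peak of each gene, that of NKX2-1 was the smallest, 189 bp and 5.28-fold with 13 reads, and its summit lay 700 bp downstream of the nearest start.

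H3K27ac could be compared at GATA2 and ELF3 alone, and both were acetylated within 3 kb in both lines. The share of coding genes with such a peak was 73.5% in A549, 64.9% in B2B and 62.3% in both. At GATA2 a single A549 peak of 2792 bp had 21.2-fold, at the 64.9th percentile of its list. There were 4 B2B peaks over 4804 bp, the highest of 5.52-fold and at the 50.5th percentile. At ELF3, 2 A549 peaks covered 5767 bp and 3 B2B peaks 2259 bp of the window. ELF3 was thus acetylated at its start in B2B without H3K4me3 or pol II calls there. In the B2B list, which covered all 8 genes, FOXA1 and GATA6 were also acetylated, with at most 8.90-fold and 4.10-fold. NKX2-1, FOXA2, HNF4A and CEBPA had no B2B H3K27ac peak within 3 kb. Within 100 kb, B2B had none at NKX2-1 or FOXA2, 3 at HNF4A and 5 at CEBPA.

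Med1 was called at FOXA1 and ELF3 in A549 (54.7% of coding genes) and at FOXA1, GATA2 and ELF3 in B2B (61.1%), of 4 genes covered. GATA2 had 5 Med1 peaks of up to 6.90-fold within 3 kb in B2B and none in A549, which held for 10.3% of coding genes. Within 5 kb, Med1 was called at GATA2 in A549 too. FOXA1 had 4 Med1 peaks in each line, over 1362 bp in A549 and 3754 bp in B2B. ELF3 had 3 peaks over 1343 bp in A549 and 1 peak of 182 bp in B2B. NKX2-1 had no Med1 peak at its start in either line.

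CTCF and the cohesin subunit Rad21 were analysed in B2B alone. CTCF, which marks domain boundaries with cohesin, was called within 3 kb of 6 of the 8 genes (50.1% of coding genes) and Rad21 of 7 (67.9%). The CTCF peak of highest fold enrichment lay at ELF3, 24.9-fold with 150 reads, 849 bp upstream of a start. FOXA1 followed with 14.5-fold, and the remaining CTCF peaks at NKX2-1, FOXA2, GATA6 and CEBPA reached 3.24- to 3.94-fold, all at or below the 7.01st percentile of the list. Background under the CTCF peaks at GATA6 and CEBPA was 29.5 and 42.5 reads, against a median of 2.32 reads in that list. HNF4A had neither protein within 3 kb, and GATA2 had 6 Rad21 peaks and no CTCF peak there.

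Jun-family peaks stood within 3 kb of 4 genes in A549 and of 2 in B2B (43.8% and 25.5% of coding genes). JunB was called within 3 kb of FOXA1, FOXA2, HNF4A and CEBPA in A549 and of none of the 8 genes in B2B (31.1% and 5.28% of coding genes). Jun was called at the same 4 genes in A549 and at HNF4A and ELF3 in B2B (38.2% and 25.4%). JunD was called at FOXA2, HNF4A and CEBPA in A549 and at none in B2B (17.8% and 3.21%). These 3 genes had all 3 proteins in A549, as did 13.7% of coding genes, and none of the 8 had all 3 in B2B (2.61% of coding genes). The B2B JunB list was shorter than the A549 list, with 8563 against 28068 peaks. When the A549 list was shortened to that length, FOXA1 and HNF4A were called and FOXA2 and CEBPA were not.

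Near the P1 promoter of HNF4A, the region 2694 bp upstream of the nearest start was the strongest Jun-family site within 3 kb of any of the genes and was bound in both lines. In A549 JunB reached 15.7-fold, Jun 32.4-fold with 91 reads, and JunD 8.04-fold. In B2B Jun reached 17.1-fold with 55 reads, and no JunB or JunD peak was called. The region lies in an intron of the longer HNF4A transcripts, and no H3K4me3 peak of either line overlapped it. A second region, 219 bp upstream of the start, carried JunB at 6.52-fold and Jun at 7.12-fold in A549 and no peak in B2B. The sequences of both are printed because they show a shared and an A549 site upstream of the same start, at chr20:44398495-44398595 and chr20:44400970-44401070. Unless another length is given, each sequence here is 101 bases of the plus strand of hg38 around a summit, with AP-1 letters in capitals. Windows that overlap an untranslated exon are not printed whole.
HNF4A, shared upstream region: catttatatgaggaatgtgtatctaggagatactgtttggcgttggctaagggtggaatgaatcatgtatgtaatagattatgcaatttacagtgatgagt
HNF4A, A549 promoter region: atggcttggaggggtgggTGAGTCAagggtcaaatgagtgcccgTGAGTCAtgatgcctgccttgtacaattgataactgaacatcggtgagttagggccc
The A549 region held the AP-1 letters 2 times, and the shared region, with the larger peaks, held none within its window.

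At FOXA1 the A549 region at chr14:37595681-37596242 had its summit 49 bp downstream of the start and was called in A549 and not in B2B. JunB reached 15.7-fold with 47 reads, at the 89.1st percentile of its list, and Jun 10.7-fold with 21 reads. H3K4me3 and pol II peaks of both lines overlapped it, so that the promoter was marked in B2B without a Jun-family call. The AP-1 letters stood 3 bp from the JunB summit, which lay in an exon of FOXA1. An untranslated exon of TTC6 overlapped the window around the summit, so that 27 bases around the letters at chr14:37596000-37596026 are printed.
FOXA1, AP-1 letters at the start: taagagcaggTGAGTCAcagcaccggt

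At FOXA2 and CEBPA all 3 proteins lay close to the start in A549, with no Jun-family peak there in B2B. In A549 FOXA2 had JunB at 8.02-fold (31 reads), Jun at 8.46-fold (20 reads) and JunD at 5.37-fold (18 reads), with the Jun summit 159 bp upstream of a start. A further JunB peak of 4.90-fold lay 322 bp downstream. CEBPA had JunB at 6.27-fold (32 reads), Jun at 5.23-fold (20 reads) and JunD at 4.95-fold (28 reads), 16 to 88 bp upstream. The CEBPA peaks stood low in their lists, at the 43.5th, 8.55th and 34.3rd percentile. B2B pol II, CTCF and Rad21 peaks overlapped the CEBPA region, over 20.5 to 47.55 background reads. The CEBPA sequence, at chr19:33302562-33302662, is printed to set this site beside the HNF4A and FOXA1 ones, since it did not hold the AP-1 letters.
CEBPA, A549 promoter region: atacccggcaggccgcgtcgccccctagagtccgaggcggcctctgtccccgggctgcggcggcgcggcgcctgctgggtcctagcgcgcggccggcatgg
The window was rich in G and C, with 79.2% of its bases, against 52.5% at the A549 region of HNF4A.

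ELF3 was the gene with a Jun-family call at its start in B2B alone. Jun reached 8.73-fold with 36 reads 869 bp upstream of a start, in an untranslated exon. The B2B CTCF peak of 24.9-fold and a Rad21 peak of 8.40-fold overlapped the same place. No Jun-family peak lay within 3 kb of NKX2-1, GATA6 or GATA2 in either line. At 5 kb in place of 3 kb, ELF3 was the fifth gene with JunB and with Jun in A549, so that its call in B2B alone was limited to the shorter distance.

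Within 100 kb the 8 genes together had 38 JunB peaks in A549 and 3 in B2B, 41 and 25 Jun peaks, and 9 and 3 JunD peaks. FOXA2, ELF3 and CEBPA had 7, 10 and 9 JunB peaks in A549 and none in B2B. Of coding genes, 53.6% had no B2B JunB peak within 100 kb. More JunB peaks in A549 than in B2B were found at 6 of 8 genes, close to the 74.1% of coding genes for which that held. For Jun it was also 6 of 8 genes, beside 43.5% of coding genes, and for JunD 4 of 8, beside 44.5%. H3K4me3 peaks numbered 40 and 23, with more in A549 at 5 genes (45.8% of coding genes) and more in B2B at FOXA1 alone, 9 against 8 (35.2% of coding genes). With lists of equal length the JunB counts were 10 and 3. The bar plot of peak numbers gives these counts by gene.

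**Figure D3:**
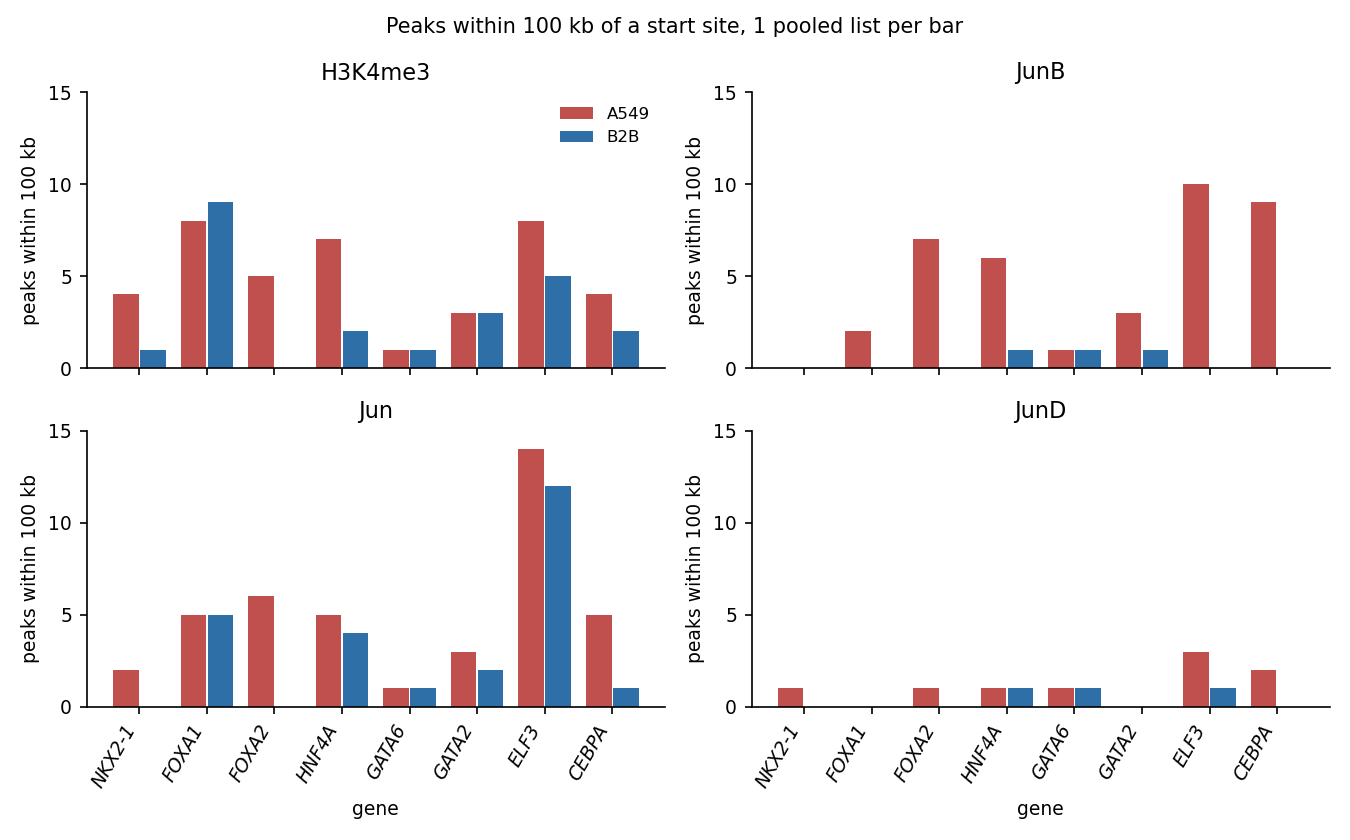
Number of H3K4me3, JunB, Jun and JunD peaks within 100 kb of a start site for each of the 8 genes, in A549 (red) and B2B (blue), 1 pooled list per bar and therefore no error bars. ELF3 had 14 and 12 Jun peaks, and JunB peaks in B2B were limited to 1 each at HNF4A, GATA6 and GATA2.

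Jun-family peaks of both lines were merged into regions where they overlapped by 1 bp or more, which gave 63 regions within 100 kb of the 8 genes. Of these, 38 (60.3%) were bound in A549 alone, 14 (22.2%) in both lines and 11 (17.5%) in B2B alone. Over all 72011 regions of the genome the shares were 34.1%, 26.5% and 39.4%. These are not limited to windows around genes, and within 100 kb of a coding gene the median numbers of regions were 3, 2 and 2. The regions of a gene share a locus and are not independent of each other. More A549-alone than B2B-alone regions were found at 6 of the 8 genes and the reverse at none, beside 50.7% and 33.2% of coding genes. The map of regions by distance shows where they lay.

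**Figure D4:**
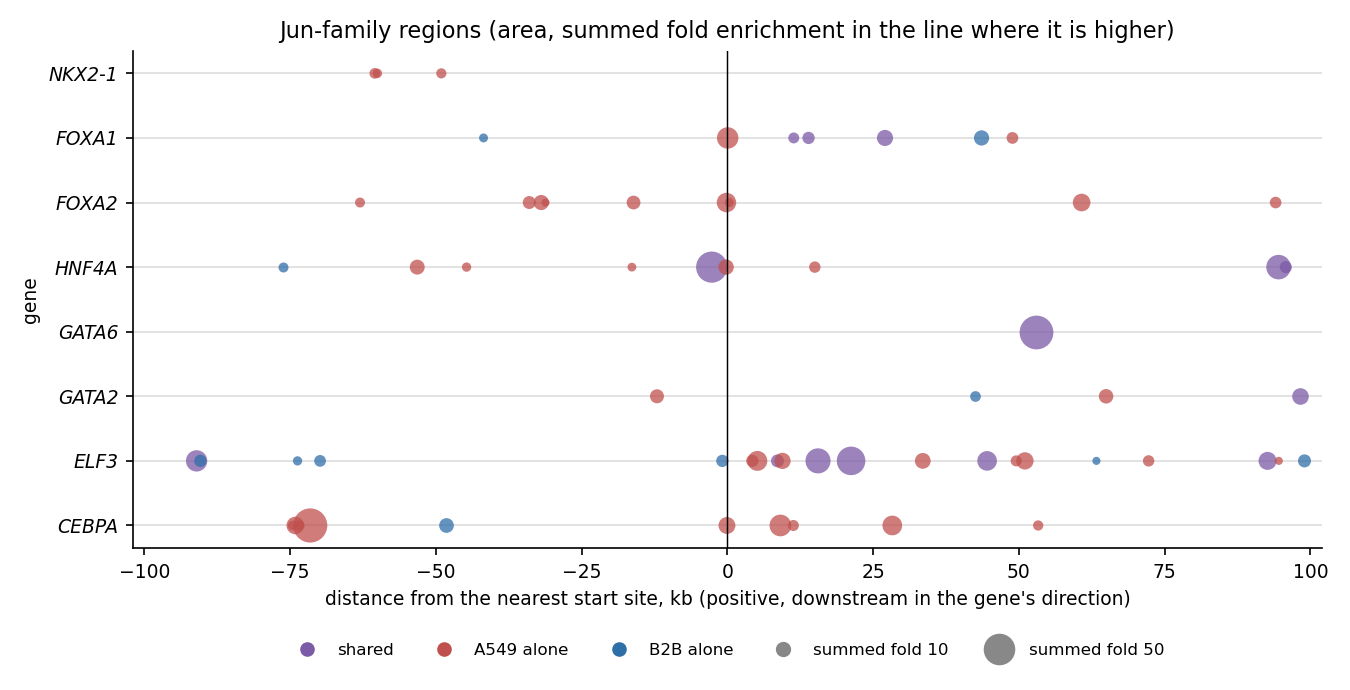
Jun-family regions within 100 kb of each gene, placed by the distance of the summit from the nearest start site in kb, with the area of each point in proportion to the summed fold enrichment of Jun, JunB and JunD in the line where that sum is higher. Colour shows regions bound in both lines (purple), in A549 alone (red) or in B2B alone (blue). All 9 regions at FOXA2 and 9 of 10 at CEBPA are A549 alone, and the single region at GATA6 is shared.

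FOXA2 and CEBPA had the most A549-alone regions, 9 each, a number that 95.7% of coding genes did not exceed. At FOXA2 every region was A549 alone, as were the 3 regions of NKX2-1, which held for 7.52% of coding genes. The NKX2-1 regions lay 49.1 to 60.5 kb upstream, a pair of them in NKX2-8, and reached at most 6.51-fold. At CEBPA 4 of the 9 lay in introns of its neighbour CEBPG, about 71.6 to 74.6 kb upstream of CEBPA, and an A549 H3K4me3 peak overlapped each of these. The strongest of them held Jun at 53.5-fold, the highest Jun value around any of the genes, with JunB at 6.86-fold and JunD at 6.83-fold. It spanned the CEBPG start at chr19:33373685, and B2B H3K4me3, pol II, H3K27ac and Rad21 peaks overlapped it too. Within 3 kb of the CEBPG start sites A549 had 4 JunB peaks, 2 Jun peaks and 1 JunD peak. These regions thus lay near the CEBPG promoter and cannot be assigned to CEBPA. The highest CEBPA region outside CEBPG lay 9.09 kb downstream, with Jun at 20.4-fold and JunB at 6.71-fold. CEBPA also had 1 B2B region, 48.3 kb upstream at chr19:33350457-33350994, with Jun at 12.5-fold and B2B H3K27ac, pol II and CTCF peaks over it.

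GATA6 and GATA2 had few Jun-family regions, 1 and 4, and the strongest of each was shared. The GATA6 region at chr18:22223471-22224145, 52.9 kb downstream of a start in an intron of a long noncoding RNA gene, was the only one of the 63 with all 3 proteins in both lines. In A549 Jun reached 39.9-fold, JunB 16.7-fold and JunD 9.09-fold. In B2B Jun reached 31.1-fold, JunB 4.52-fold and JunD 6.20-fold. The GATA2 region lay 98.2 kb downstream, within EEFSEC, with JunB at 8.89-fold and Jun at 7.02-fold in A549, and at 4.02-fold and 9.12-fold in B2B. The windows of the shared regions, at chr18:22223756-22223856 and chr3:128383666-128383766, are printed beside the B2B region of CEBPA at chr19:33350752-33350852, as all 3 held the AP-1 letters.
GATA6, shared distal region: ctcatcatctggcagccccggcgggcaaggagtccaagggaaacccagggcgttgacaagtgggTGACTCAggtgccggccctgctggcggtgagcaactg
GATA2, shared distal region: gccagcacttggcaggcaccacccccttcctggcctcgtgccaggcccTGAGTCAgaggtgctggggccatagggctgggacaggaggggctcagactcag
CEBPA, B2B distal region: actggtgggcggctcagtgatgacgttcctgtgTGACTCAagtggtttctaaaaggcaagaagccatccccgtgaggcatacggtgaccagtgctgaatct

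FOXA1 and HNF4A mixed the classes. FOXA1 had 3 shared regions 11.4, 13.9 and 27.04 kb downstream, all of 9.48-fold or less, beside 2 A549-alone and 2 B2B-alone regions. HNF4A had 3 shared, 5 A549-alone and 1 B2B-alone region. Its highest B2B region, shared with A549, lay 94.5 kb downstream of a start between genes, with JunB at 7.13-fold, Jun at 22.4-fold and JunD at 5.17-fold in B2B.

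ELF3 had the largest number of peaks around it in most lists. It held 30 A549 and 19 B2B H3K27ac peaks within 100 kb, 22 and 7 pol II peaks, 18 and 8 Med1 peaks, and 14 and 12 Jun peaks. Of coding genes, 98.8% had no more A549 Med1 peaks than ELF3, and 97.5% no more A549 Jun peaks. In B2B the values were 81.3% for Med1 and 94.2% for Jun, so that ELF3 stood high for Jun in both lines. JunB was called 10 times in A549 and not at all in B2B, where 53.6% of coding genes had none either. Of its 20 Jun-family regions, 8 were A549 alone, 6 B2B alone and 6 shared.

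**Figure D5:**
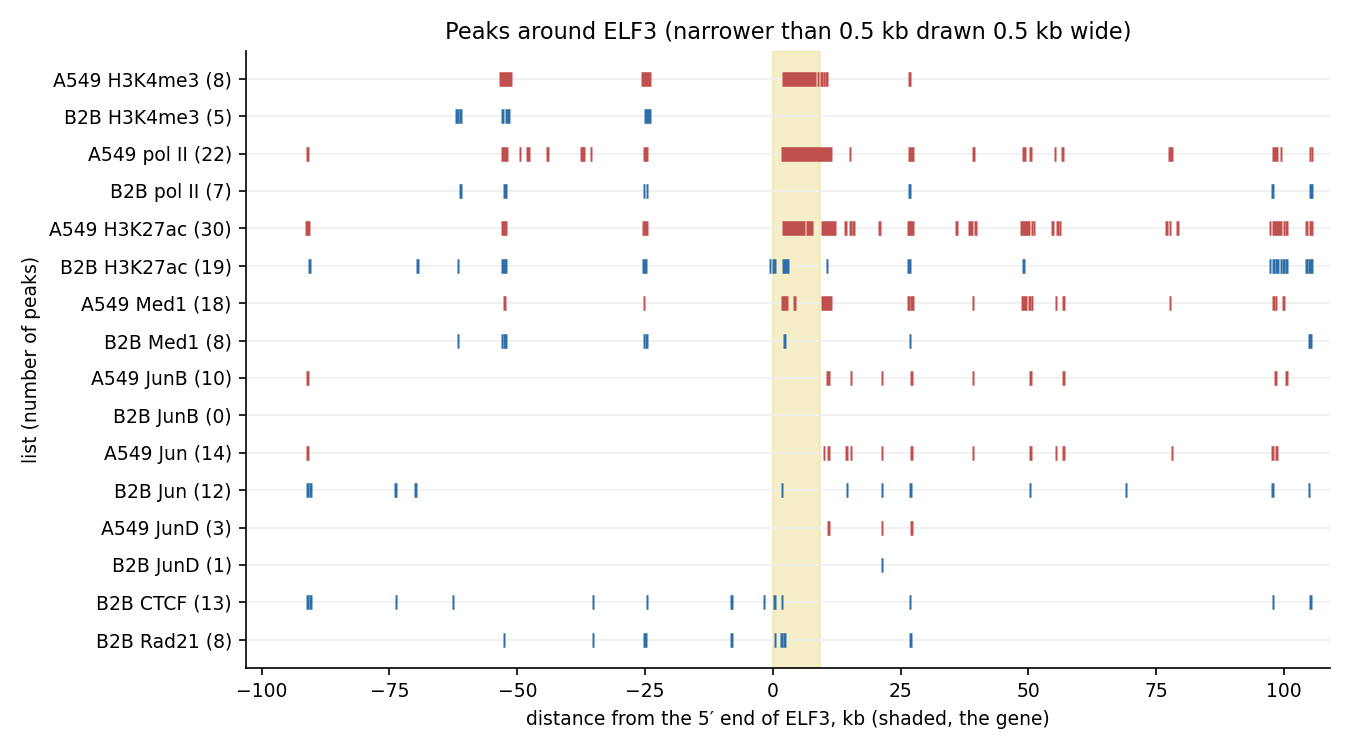
Peaks of the 16 lists along the ELF3 locus, by distance in kb from the 5′ end of the gene (shaded), with the number of peaks of each list in brackets, in A549 (red) and B2B (blue). A549 H3K4me3, pol II and H3K27ac cover most of the gene, where B2B has no H3K4me3 or pol II peak. Near the start sites B2B has a Med1 peak and 3 H3K27ac peaks, 1 of them wholly upstream of the gene.

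The strongest ELF3 region was shared and lay 21.2 kb downstream of the last start, between genes. Jun reached 34.8-fold in A549 and 10.6-fold in B2B, and JunB (6.02-fold) and JunD (6.22-fold) were called in A549 alone. H3K27ac, Med1 and pol II peaks of both lines overlapped it, with A549 H3K4me3 and B2B CTCF and Rad21. A second shared region 15.5 kb downstream had Jun at 22.9-fold in A549 and 18.3-fold in B2B, JunD in both, JunB at 6.97-fold in A549, and no peak of a target outside the Jun family. Their windows, at chr1:202034944-202035044 and chr1:202029273-202029373, are printed as a pair of neighbouring sites that differ in the letters under them.
ELF3, shared region with other marks: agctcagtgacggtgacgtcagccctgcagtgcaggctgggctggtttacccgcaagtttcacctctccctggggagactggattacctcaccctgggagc
ELF3, shared region without other marks: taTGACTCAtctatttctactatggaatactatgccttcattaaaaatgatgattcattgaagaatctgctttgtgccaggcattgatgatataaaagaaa
The first held no AP-1 letters. It held the letters TGACGTC and GACGTCA, which belong to the related element bound by CREB and ATF factors and were looked for after the data were seen. The second held the AP-1 letters 45 bp from its summit.

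The AP-1 letters, searched on both strands, stood within 50 bp of the leading summit in 27 of the 63 regions (42.9%), beside 35.1% of all Jun-family regions. By class they were found in 7 of 14 shared regions (all regions, 51.5%), 16 of 38 A549-alone regions (29.7%) and 4 of 11 B2B-alone regions (28.7%). Within 3 kb of a start 2 of 7 regions held them, those of FOXA1 and HNF4A shown above. The forkhead letters TGTTTAC or GTAAACA stood in 2 of the 63 regions (3.20% of all regions) and the GATA letters AGATAA or TTATCT in 1 (5.31%). In A549 the 52 regions held 1, 2 or all 3 proteins in 25, 19 and 8 cases, or 48.1%, 36.5% and 15.4%, beside 51.0%, 33.8% and 15.3% of all A549 regions. H3K4me3 of the same line overlapped 17 of the 52 A549 regions (32.7%, beside 30.5% of all) and none of the 25 B2B regions (7.65% of all).

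Start sites of other genes lie within 3 kb of those of every gene here but FOXA2, and a peak there cannot be assigned to either gene. TTC6 starts 380 bp from FOXA1 and CEBPA-DT 323 bp from CEBPA. The antisense genes ELF3-AS1, GATA2-AS1, GATA6-AS1 and NKX2-1-AS1 start 124, 178, 137 and 415 bp from their partners. R3HDML-AS1 starts 514 bp from HNF4A, under the A549 H3K4me3 peak at P2.

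A list of 35 other lineage regulators of endoderm and airway was described in the same way. H3K4me3 lay within 3 kb of 31 of them in A549 and 17 in B2B (73.7% and 62.7% of coding genes). It lay in A549 and not in B2B at 14 (12.9% of coding genes), among them PDX1 of the pancreas, GATA4 and SOX2. None had it in B2B and not in A549. It was called in both lines at 17 (60.8% of coding genes), such as CEBPB, SOX9 and KLF5, and in neither at ELF5, EHF, GRHL2 and HOPX. Pol II was called within 3 kb of 27 of the 34 covered in A549 and of 12 of 35 in B2B (69.6% and 50.9% of coding genes). PDX1 and SOX2 had no pol II peak there in either line, and GATA4 had 1 in A549 and none in B2B. JunB was called at 15 in A549 and at none in B2B (31.1% and 5.28% of coding genes). Jun was called at 15 and 6 (38.2% and 25.4%), and JunD at 8 and 1 (17.8% and 3.21%). In the 8 lists of H3K4me3 and the Jun family, NKX2-1, GATA6 and GATA2 shared their pattern (H3K4me3 in both lines, no Jun protein) with 20.1% of coding genes, among them FOXP2, FOXP4 and GRHL1. FOXA1 shared its pattern with HHEX, ONECUT2 and SOX9 and with 4.88% of coding genes. The patterns of FOXA2 and CEBPA, which were the same, were found at 0.395% of coding genes, that of HNF4A at 0.275% and that of ELF3 at 0.565%, and none of the 35 other regulators had them. Each of these patterns changed with the settings. With lists of equal length FOXA2 and CEBPA lost the A549 JunB call. Within 5 kb ELF3 gained JunB and Jun in A549. Within 1 kb HNF4A lost Jun in B2B and JunD in A549.

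Marker genes of cell types were set beside these calls. H3K4me3 lay at 5 of 7 alveolar type 2 markers in A549 and 2 of 7 in B2B, beside 73.7% and 62.7% of coding genes. SFTPC and ABCA3 had it in both lines, and SFTPD, LAMP3 and NAPSA in A549 and not in B2B. SFTPB and SFTPA1, which encode surfactant proteins, had none in either line. All 5 markers of simple epithelium, EPCAM, CDH1, KRT8, KRT18 and KRT7, were marked in both lines. All 5 mesenchymal markers, VIM, CDH2, FN1, ZEB1 and TWIST1, were marked in both lines too, as were 60.8% of coding genes. Of 4 basal airway markers, A549 had TP63 and B2B had KRT17, and KRT5 and KRT14 had no peak in either line. The part of cell type in the calls at the 8 genes was not tested.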

How the data were processed

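Per the labels and methods, the authors fixed and sonicated chromatin, aligned reads to hg38 with Bowtie2 2.4.4, merged the 2 replicates of each group with SAMtools 1.13 and called peaks with MACS2 2.2.7.1. The options and the control of the caller are not given in the sources used here. The authors deposited for each peak a fold enrichment (a ratio), −log10 p and q values, and another column, the offset of its summit. Read depth per sample is not known from these lists. Pileup and background reads were solved from the fold enrichment and −log10 p, and 100% of 2000 simulated pileups were recovered.

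Start sites came from GENCODE release 44, and no peak reached past the end of a chromosome of the hg38 reference. A peak was counted when 1 bp or more of it fell in the window (Python 3.11.15, NumPy 2.4.6). On simulated data 4 of 4 interval sets equalled those of bedtools 2.31.1. Sequence was read with pysam 0.24.0. Genes past the end of a list were left out of it. No test was made, as each list pools replicates. Genes named are the 8, the cell type markers, the other regulators of a fixed list with a pattern matching one of them (at most 3 each) with examples of each H3K4me3 class, and close neighbours. Regions named in the text are those within 3 kb and the strongest in each line, with further ones chosen after their values were seen. The genes and lists were chosen with earlier results of these data known. Alternatives were other distances, the gene's 5′ end alone, a stricter q, summits, 50% reciprocal overlap and lists of equal length. Input samples were not analysed here. Certain items are not reported here.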

Additional observations from a re-analysis of the deposited data

How the results depend on the processing

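Of 144 values under the alternatives, 129 stayed within 1.5 times the count, or within the Wilson 95% interval of the share, 13 moved and 2 reversed. With the gene's 5′ end alone, A549 H3K27ac was called at 1 gene in place of 2 and B2B Jun at 1 in place of 2, the latter also within 1 kb. At that 5′ end, A549 H3K4me3 and the pol II of both lines were no longer called at GATA2, while B2B H3K4me3 was. With lists of equal length, A549 JunB was called at 2 genes in place of 4, and B2B H3K27ac at 2 in place of 4, since only chromosomes that both lists cover were kept. A549 gave 72.9% of pol II peaks within 100 kb (60% at equal length), 92.7% of JunB peaks (76.9% at equal length, 100% within 50 kb) and 51.1% of Med1 peaks, which reversed to 45.6% within 200 kb and to 48.5% at the stricter q. Shared, A549-alone and B2B-alone regions numbered 8, 23 and 5 within 50 kb, and 34, 53 and 31 within 200 kb. The A549 share of Jun peaks was 62.1% within 100 kb and 51.5% within 200 kb, with 68 against 64 peaks. Where no construction shows it, the cause was not tested. No paired analysis was possible because each list pools its replicates, and for the same reason no replicate could be left out. A gene with no peak may carry signal under the threshold of the caller.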
